A study of Mus musculus with 8 samples.

Results

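The positive limb of the liver clock was followed through 8 genes: the activators Arntl, Clock and Npas2, the nuclear receptor gene Rora, the REV-ERB genes Nr1d1 and Nr1d2, and the DEC genes Bhlhe40 and Bhlhe41. Every probe set (the group of short probes that an Affymetrix array uses to read a transcript) whose annotation named only 1 of these genes was kept, which gave 8 of 18194 genes and 23 probe sets of 45101 on the array. Of these, 9 belonged to Rora, 4 to Clock, 2 each to Arntl, Npas2, Nr1d2 and Bhlhe41, and 1 each to Nr1d1 and Bhlhe40.

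RNA from whole mouse liver was read on 8 arrays in 4 groups of 2: wild-type (WT) mice of 3, 12 and 19 months, and Sirt1-deficient (MT) mice of 3 months. All 4 groups carried a mixed 129/FVB/Black Swiss background, and MT differed from WT by a germline Sirt1 deletion present in every tissue. The comparisons asked which genes move with age in WT liver and which with the loss of Sirt1, a NAD-dependent protein deacetylase, at the same young age. Livers were taken in the morning under a light-dark cycle, and no source used here gives the hour for each mouse. Each group had fewer arrays than mice in the study's account, with no word on pooling, so p-values measure the spread between these arrays only.

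The Affymetrix MAS5 signal, a brightness on a linear scale, is the unit of every level below, and differences are in log2. Median signal per array ranged from 74.5 to 82.8, and arrays of a group correlated at 0.913 to 0.926 over all probe sets, against 0.909 to 0.922 between groups. The log2 gap between the 3' and 5' control probe sets is a check on RNA quality. For pyruvate carboxylase it was 4.25 and 3.88 in WT at 3 months and 3.88 and 3.93 in MT. At 12 months it was 4.54 and 5.10, and at 19 months 5.86 and 4.77. Over the 8 arrays it ran from 0.97 to 1.48 for beta-actin and -0.62 to -0.34 for Gapdh. Its part in the comparisons was not tested. On all 8 arrays the Xist probe sets lay at or above the 95.2 percentile and the 9 Y-linked probe sets at or below the 43.1 percentile of signal, the pattern of female liver, whereas the study's methods describe the mutants as males. The Sirt1 probe set read 589 and 539 in WT at 3 months, 437 and 599 at 12 months, 619 and 716 at 19 months, and 615 and 713 in MT. The MT arrays were not below the WT arrays. No source used here places this probe set inside or outside the deletion, so the signal does not check the genotype. All 6 hepatocyte markers stood at or above the 97.9 percentile and none passed the test between MT and WT at 3 months, nor did any tested marker of Kupffer cells, endothelium, bile duct (1 of 4 on the array tested), stellate cells, lymphocytes, neutrophils, red cells or exocrine pancreas. Equal composition was not shown by this. In MT, hepatocyte markers were above 0 in 6 of 6 (median 0.13) and stellate cell markers in 4 of 5 (0.09). Kupffer cell markers were below 0 in 6 of 7 (median -0.26), T and NK cell markers in 4 of 4 (-0.43) and endothelial markers in 4 of 6 (-0.08). The part of these shifts in the results was not tested. Muscle markers were too dim to be tested, and of these Acta1 read 13.8 and 31.2 in WT at 3 months and 355 and 75.6 in MT. The summed signal of the exocrine pancreas markers on the array, of which Cela1 made up nearly all, was 4853 and 4282.5 in WT at 3 months, 4041.5 and 2742 at 12 months, 1956.5 and 1568 at 19 months, and 2077 and 1987 in MT. Its part in the results was not tested.

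The genes form a loop that times transcription over the day. ARNTL (also called BMAL1) pairs with CLOCK, or with its paralog NPAS2, and the pair binds E-boxes in the promoters of Per, Cry, Nr1d1, Nr1d2, Bhlhe40, Bhlhe41 and Dbp. ROR receptors activate, and REV-ERB receptors repress, genes that carry a ROR element, among them Arntl and Npas2, while the PER, CRY and DEC proteins hold back the activators. In liver this loop times the genes of lipid, bile acid and glucose metabolism.

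The RefSeq promoters of 7 of the 8 genes, 10 windows in all on mouse build GRCm38.p6, ran from 250 bases before the transcription start to 50 bases from the start on. The 4 printed here belong to Arntl, Npas2 and Nr1d1, whose signals were lower in MT liver, and to Nr1d2, the REV-ERB paralog whose signal was higher. Capitals mark an exact match, on either strand, to 1 of the 4 motifs searched: CACGTG (E-box), CACGTT (E-prime box), TAGGTCA (core of the ROR element) or AGGTCA (nuclear receptor half-site, which lies within the ROR core).
Arntl, the second of its windows, plus strand, chr7:113207261-113207560: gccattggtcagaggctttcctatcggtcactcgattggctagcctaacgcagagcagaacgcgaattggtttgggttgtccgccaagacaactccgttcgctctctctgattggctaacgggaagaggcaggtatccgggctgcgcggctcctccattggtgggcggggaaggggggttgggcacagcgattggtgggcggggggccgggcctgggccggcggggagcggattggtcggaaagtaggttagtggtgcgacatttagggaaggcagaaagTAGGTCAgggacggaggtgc
Npas2, plus strand, chr1:39194022-39194321: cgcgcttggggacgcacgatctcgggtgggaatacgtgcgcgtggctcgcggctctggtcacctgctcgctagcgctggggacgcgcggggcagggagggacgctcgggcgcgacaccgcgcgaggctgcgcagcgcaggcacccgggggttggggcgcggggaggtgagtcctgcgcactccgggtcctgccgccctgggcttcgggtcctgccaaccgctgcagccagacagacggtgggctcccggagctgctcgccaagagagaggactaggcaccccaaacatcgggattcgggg
Nr1d1, minus strand, chr11:98775328-98775627: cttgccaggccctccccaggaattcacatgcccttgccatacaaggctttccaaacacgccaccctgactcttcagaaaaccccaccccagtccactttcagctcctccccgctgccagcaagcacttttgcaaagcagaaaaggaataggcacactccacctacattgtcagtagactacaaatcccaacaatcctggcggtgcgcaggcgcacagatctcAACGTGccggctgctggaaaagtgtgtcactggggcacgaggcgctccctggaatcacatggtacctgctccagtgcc
Nr1d2, minus strand, chr14:18239057-18239356: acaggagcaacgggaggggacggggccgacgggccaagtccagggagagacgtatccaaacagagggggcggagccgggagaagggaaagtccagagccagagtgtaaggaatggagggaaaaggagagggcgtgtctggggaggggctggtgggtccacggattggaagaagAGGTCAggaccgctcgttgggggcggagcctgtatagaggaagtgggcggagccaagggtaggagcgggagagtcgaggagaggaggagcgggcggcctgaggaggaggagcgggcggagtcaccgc

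The Arntl window held the ROR core at bases 281 to 287 of the printed run. A core of this spelling was present in 2.61% of the 32851 promoters in the table. The Nr1d1 window held the E-prime box on the opposite strand, at bases 223 to 228, a motif of 4.68% of promoters. The Nr1d2 window held a half-site at bases 174 to 179, and half-sites were in 16.3% of promoters. No match was found in the Npas2 window. Of the windows not printed, that of Bhlhe41 held an E-box (7.15% of promoters) and 1 of the 3 Clock windows a half-site, and those of Rora and the remaining ones had no match. These matches describe the letters of the windows and nothing more.

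At 3 months, MT liver had lower signals than WT liver for Arntl, Npas2 and Nr1d1, with smaller differences below 0 for Clock and Rora, and a difference above 0 for Nr1d2. Of the 23 probe sets, 15 reached the upper 50% of mean signal and were tested (limma over all 8 arrays, Benjamini-Hochberg adjustment over 22519 probe sets), and a call needed an adjusted p under 0.05. None of the 15 was called, against a background of 0.515% of all tested probe sets (116 of 22519). At an unadjusted p under 0.05 there were 5 of 15, against 13.5% of all probe sets. The median difference of the 15 was -0.30, and over all tested probe sets it was 0.02.

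**Figure D1:**
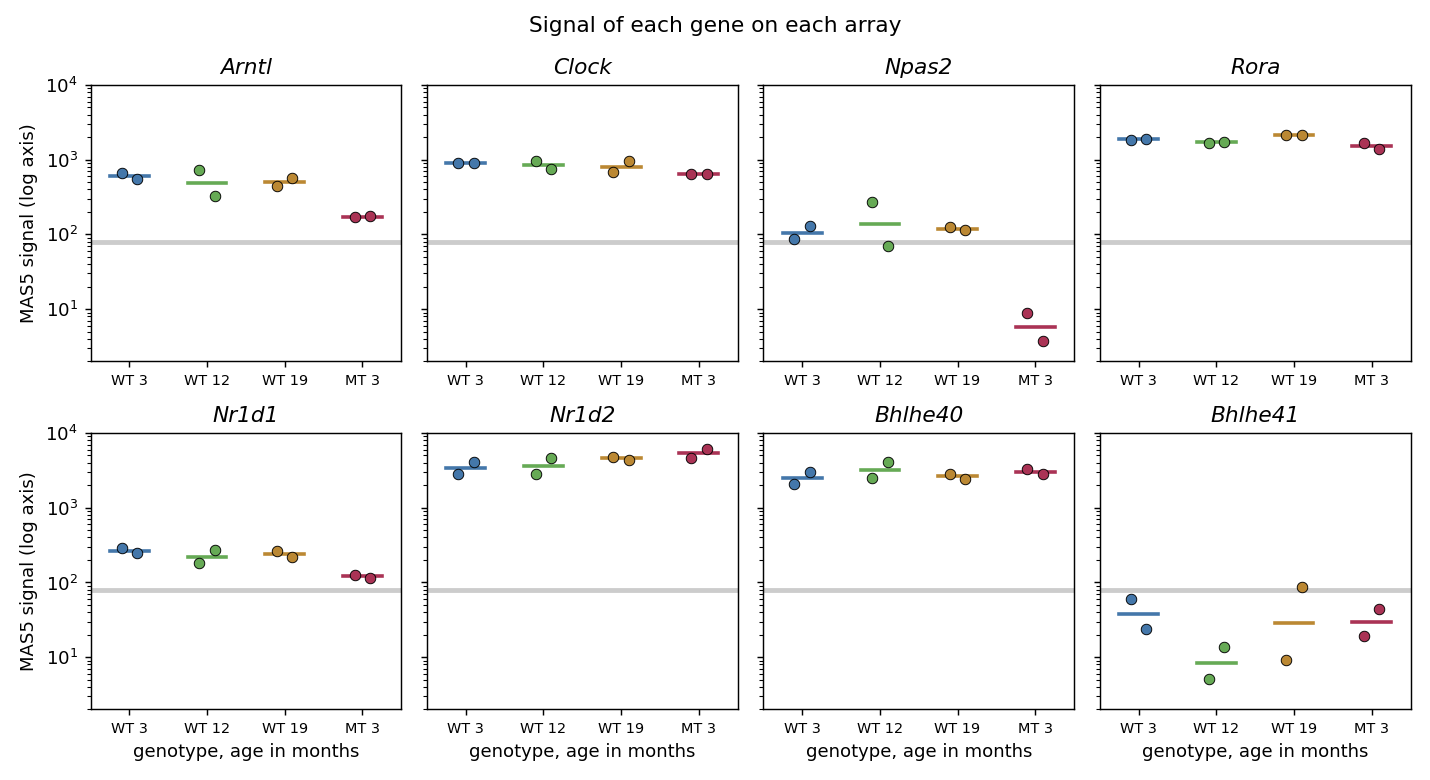
MAS5 signal (log axis) of each gene's brightest probe set on the 8 arrays, by genotype and age in months; points are arrays, lines are the means of the log2 values, and the grey band spans the array medians. The 2 MT arrays lie below all 6 WT arrays for Arntl, Clock, Npas2, Rora and Nr1d1, and Bhlhe41 lies under the band on all but 1 array. Over all tested probe sets, 14.0% had MT arrays wholly above or wholly below the 6 WT arrays.

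Arntl encodes BMAL1, the activator without which the loop stops. Its brighter probe set read 658 and 559 in WT at 3 months, 718 and 326 at 12 months, 442 and 566 at 19 months, and 169.9 and 176 in MT. Both MT arrays were below every WT array, and the WT groups overlapped one another. MT was 3.50-fold lower than WT of the same age, a log2 difference of -1.81 ± 0.33 (SE, 95% interval -2.54 to -1.08), with a limma adjusted p of 0.0528. That p lay just past the threshold. It was 0.0122 and 0.0107 without the first or the second 12-month array, 0.284 and 0.222 without the first or the second WT 3-month array, and 0.155 without a variance trend. The second Arntl probe set was dimmer, at 188 and 117 in WT at 3 months against 70.4 and 84.8 in MT, and the difference of -0.94 had an adjusted p of 0.423. Its 12-month arrays read 106 and 172 and its 19-month arrays 69.7 and 172, so the MT arrays overlapped the oldest group there.

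Clock, the partner of BMAL1 in the activator pair, was steadier. Its brightest probe set read 894 and 903 in WT at 3 months, 962 and 754 at 12 months, 676 and 963 at 19 months, and 652 and 641 in MT. The MT arrays were the lowest of the 8, by a margin that was small beside the gap of the 19-month pair. The difference from WT at 3 months was -0.48 ± 0.20 (limma adjusted p = 0.353). The other 3 Clock probe sets gave -0.71, -0.71 and -1.04, with adjusted p from 0.241 to 0.415. All 4 Clock probe sets, read on the same arrays, put both MT arrays below both WT arrays of 3 months, and none was called. Over all tested probe sets, 45.7% did not overlap in this comparison, in either direction. On the dimmest, which read 102 and 137 in WT at 3 months and 48.3 and 68.4 in MT, the MT arrays were under the array median, so WT was at least 1.44-fold above MT.

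Npas2, the paralog that can stand in for CLOCK, had signals on both MT arrays far below those on any WT array. Its brighter probe set read 88.0 and 128 in WT at 3 months, 272 and 70.1 at 12 months, 124 and 113 at 19 months, and 8.83 and 3.71 in MT. All 6 WT arrays lay between 70.1 and 272, near or above the array median, and both MT arrays were far under it. The MT signals are therefore only a bound: WT of 3 months was at least 1.29-fold above MT, measured against the array median. The mean signal of this probe set was under the filter, so it had no place among the 15. Without the filter, over all 45037 probe sets, the fitted difference of -4.21 rests on MT signals under the array median and is no size of change. The p-values of that fit rest on the same signals, and limma gave an adjusted p of 0.0578 against WT at 3 months, 0.0467 against 12 months and 0.0705 against 19 months. Adding 16 to every signal, which damps differences near 0, brought the fitted difference at 3 months to -2.47 with an adjusted p of 0.141, and over the alternatives run that p lay between 0.0342 and 0.347. The second Npas2 probe set was under the array median on every array, at 8.80 to 59.1, and gave no usable comparison.

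Rora encodes the ROR receptor that activates through the ROR element. Its brightest probe set read 1843 and 1894 in WT at 3 months, 1694 and 1746 at 12 months, 2171 and 2115 at 19 months, and 1654 and 1397 in MT. Replicate arrays lay within 1.03-fold of each other in each WT group, and the MT pair was lowest. The difference between MT and WT at 3 months was -0.30 ± 0.14 (limma adjusted p = 0.400) and moved from -0.42 to -0.18 without single arrays, and against WT of 19 months it was -0.50 with an adjusted p of 0.203. The other 5 tested Rora probe sets ranged from -0.22 to 0.06 at 3 months, and 4 of these had overlapping groups. The remaining 3 were under the array median on every array and gave no usable comparison. The mean over all 9 probe sets gave 0.06 for MT minus WT at 3 months, the opposite sign to the brightest one. That mean counts the 3 dim probe sets, of which 1 gave 2.25 and the others -0.10 and -0.94.

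**Figure D2:**
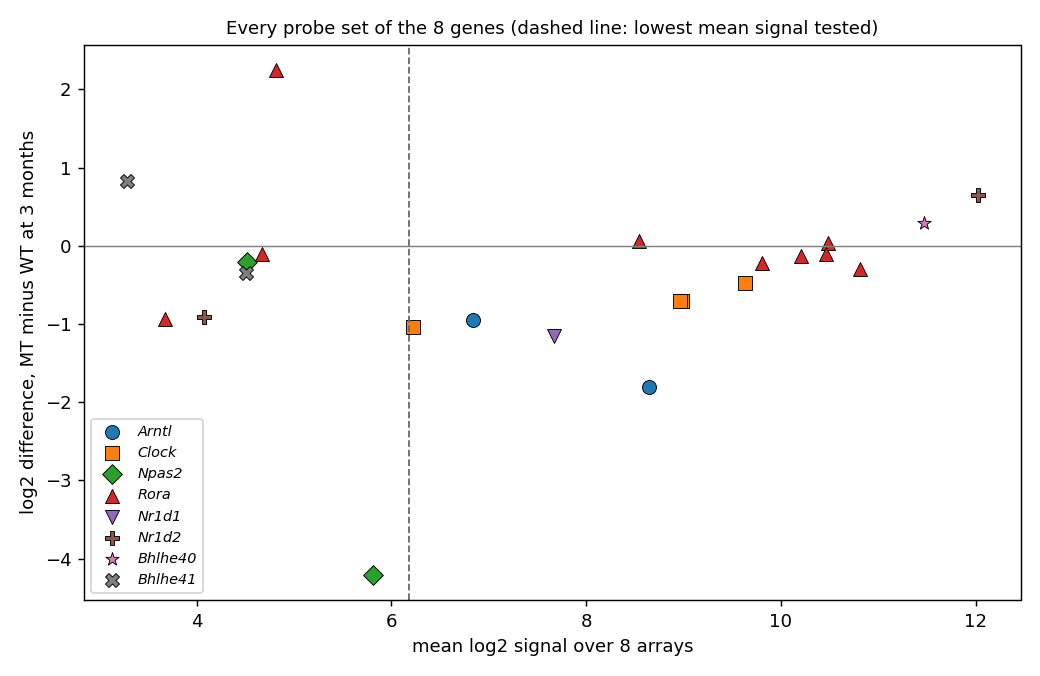
Log2 difference, MT minus WT at 3 months, against mean log2 signal over the 8 arrays, for all 23 probe sets of the 8 genes; the dashed line is the lowest mean signal tested (6.18). Right of the line, 11 of 15 differences are below 0 and the lowest is Arntl at -1.81, and left of it Npas2 lies at -4.21, a value set by MT signals under the array median.

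Nr1d1 encodes REV-ERB alpha, the repressor of Arntl and Npas2. Its single probe set read 287 and 249.8 in WT at 3 months, 181 and 273 at 12 months, 260.1 and 220.4 at 19 months, and 126 and 115 in MT. Both MT arrays lay under all 6 WT arrays, and the WT groups overlapped. MT was 2.22-fold lower than WT at 3 months, a difference of -1.15 ± 0.26 (95% interval -1.73 to -0.57, limma adjusted p = 0.0903). No second probe set of this gene was there to set beside it.

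Nr1d2 encodes REV-ERB beta, which binds the same element. It read 2814 and 4149 in WT at 3 months, 2801 and 4629 at 12 months, 4753 and 4370.4 at 19 months, and 4627 and 6171 in MT. At 3 months both MT arrays were above both WT arrays, while the 12- and 19-month pairs overlapped MT. The difference was 0.65 ± 0.26 (95% interval 0.06 to 1.23, limma adjusted p = 0.323), so the sign was opposite to that of Nr1d1 and the call did not pass. Leaving out single arrays moved it from 0.37 to 0.93. The other Nr1d2 probe set was under the array median on every array (4.66 to 57.1), and the mean of both probe sets gave -0.13 in place of 0.65.

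The DEC genes encode repressors that compete at E-boxes. Bhlhe40 (DEC1) read 2048 and 2981 in WT at 3 months, 2524 and 4147 at 12 months, 2851 and 2449 at 19 months, and 3257 and 2805 in MT. All 4 groups overlapped, and the difference of MT from WT at 3 months was 0.29 with a 95% interval of -0.27 to 0.85 (limma adjusted p = 0.676), and without single arrays 0.02 to 0.56. That interval holds changes of up to about 0.85 in log2, so similar levels were not shown. Bhlhe41 (DEC2) had no tested probe set: its brighter one read 59.9 and 23.7, 5.17 and 13.5, 9.31 and 86.8, and 19.5 and 44.8 in the same order of groups, with 1 array of 8 over its median. Nothing can be said of its direction.

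**Figure D3:**
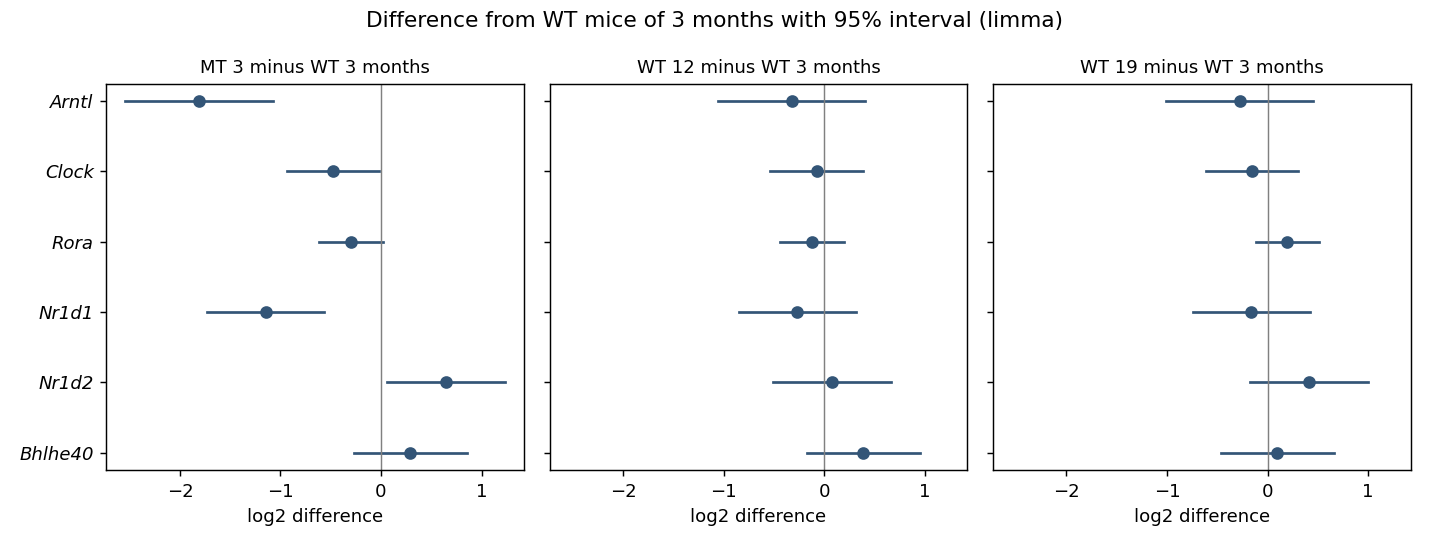
Log2 difference from WT mice of 3 months (limma, points) with 95% interval (lines) for the brightest probe set of the 6 genes tested, in MT of 3 months and WT of 12 and 19 months. Arntl at -1.81 and Nr1d1 at -1.15 have intervals that lie furthest below 0 in MT, and every interval in both age comparisons includes 0.

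No probe set of these genes passed the test between ages in WT liver. Of all probe sets, 0.0133% were called at 12 against 3 months (3 of 22519) and 0.0355% at 19 against 3 months (8 of 22519), and 1 of the 15 had an unadjusted p under 0.05 in each, against 8.57% and 12.5% of all. Between 12 and 19 months no probe set at all was called (0%), although 2419 had an unadjusted p under 0.05, among them 2 of the 15, both of Rora. The Arntl difference from 3 months was -0.33 at 12 months and -0.28 at 19 months (limma adjusted p = 0.847 and 0.781), with a 95% interval at 12 months of -1.06 to 0.41. That interval holds changes in either direction, so a stable Arntl level was not shown. Nr1d1 gave -0.27 and -0.16, Nr1d2 0.08 and 0.42, Bhlhe40 0.39 and 0.10, and Npas2 0.38 and 0.16 (without the filter, limma adjusted p = 0.955 and 0.975). Without the first or the second 12-month array the Npas2 value at 12 months was -0.60 or 1.36. The brightest Rora probe set gave -0.12 at 12 months and 0.20 at 19 months. The second brightest, which read 1306 and 1218 at 3 months, 1552 and 1651 at 12 months and 1551 and 1614 at 19 months, gave 0.34 and 0.33. Its older groups did not overlap the young one, and neither difference was called (adjusted p = 0.530 and 0.377). Of all tested probe sets, 40.1% did not overlap between 12 and 3 months, and 48.2% between 19 and 3 months.

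Set against older WT mice, MT liver again had lower signals of Arntl and Nr1d1 on both arrays. Against 12 months the Arntl difference was -1.48 and the Nr1d1 difference -0.88 (limma adjusted p = 0.109 and 0.195), with no member probe set called and 0.457% of all called (103 of 22519). Against 19 months they were -1.53 and -0.99 (adjusted p = 0.104 and 0.171), again with none called and 0.275% of all called (62 of 22519). Against the mean of the 3 WT groups, 1 of the 15 was called, with 0.795% of all called (179 of 22519). That one was Arntl, 3.05-fold lower in MT (-1.61 ± 0.27, adjusted p = 0.0330), and Nr1d1 had -1.01 ± 0.21 (adjusted p = 0.0736). In that comparison the endothelial marker Stab2 was also called lower (-0.81, adjusted p = 0.0489), with 5 of 6 endothelial markers below 0, and against 19 months the plasma cell marker Jchain was (-2.43, adjusted p = 0.0366). Summed signal of the endothelial markers ranged from 8050.3 to 9402 in WT and read 6818 and 8886 in MT, so the groups overlapped. Summed signal of the B and plasma cell markers was 5858 and 3972 in WT at 19 months against 511 and 1049 in MT. Kupffer cell markers were below 0 in 7 of 7 against the mean of WT groups (median -0.39) and against 19 months (median -0.84). Hepatocyte markers were above 0 in 6 of 6 in both comparisons (medians 0.18 and 0.35). None of these Kupffer cell or hepatocyte markers was called. The part of any of these cell types in the result was not tested. All of these comparisons share the MT arrays. The Arntl call was lost when any 1 array of the WT 3-month, WT 19-month or MT group was left out, with adjusted p from 0.0636 to 0.144.

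At 3 months, 10 of the 15 tested probe sets had MT and WT arrays that did not overlap, and so did 45.7% of all tested probe sets, while 0.515% of all tested probe sets were called. Between MT and the WT arrays of all ages, 5 of the 15 did not overlap, against 14.0% of all tested probe sets. An exact permutation test on 2 against 2 arrays cannot go below 0.333.

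The order of the groups differed between the genes. By mean log2 signal, Arntl ran WT 3, WT 19, WT 12 and MT from high to low, at 606, 500.0, 484 and 173, and only the step to MT exceeded the spread of the arrays. Nr1d1 ran in the same order, at 268, 239, 222 and 121, again with overlapping WT groups. For Nr1d2 the order was MT, WT 19, WT 12 and WT 3, at 5343, 4558, 3600.5 and 3417, and neighbours in it did not differ beyond their spread. Npas2 ran WT 12, WT 19, WT 3 and MT, at 138, 118, 106 and 5.73. Both MT arrays lay under every WT array. The value of 5.73 is under the array median and only a bound, so the size of that last step is not known.

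Arrays of 1 WT group differed from each other along several clock genes, at 12 months for Arntl and Npas2 among others. Arntl was 2.20-fold lower on the second 12-month array than on the first, a log2 gap wider than that of 96.0% of all tested probe sets in this pair. Npas2 was 3.88-fold lower on the second array, while Nr1d1, Nr1d2 and Bhlhe40 were 1.51-, 1.65- and 1.64-fold higher. Output genes were split too: Dbp, a transcription factor driven directly by the activators, read 380.1 on the first and 3125 on the second, and Nfil3, its repressor counterpart, read 1680.0 and 655. Rora, Cry2 and Clock did not stand out in this pair, with gaps at the 9.41, 27.2 and 62.5 percentiles of all tested probe sets. The WT 3-month pair was split as well, with Dbp at 252 and 1060.3 (99.6 percentile), Per1 at the 98.9, Per3 at the 96.9, Nr1d2 at the 87.1 and Bhlhe40 at the 86.2 percentile, while Arntl was at the 58.1. In the 19-month pair Cry2 was at the 97.7, Dbp at the 97.2, Cry1 at the 87.7 and Clock at the 82.6 percentile. Per2 and Rora were at the 14.9 and 10.1 there. In a fit without the 12-month group, an alternative chosen after seeing the data, the Arntl difference of MT from WT at 3 months had a limma adjusted p of 0.0116. The MT pair was close for Arntl, apart by 1.04-fold (11.4 percentile), and less so for Dbp and Nr1d2, at the 72.1 and 69.8 percentiles. Its median log2 gap over all tested probe sets was 0.259, as in the 12-month pair (0.259), against 0.189 in WT at 3 months and 0.218 at 19 months.

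**Figure D4:**
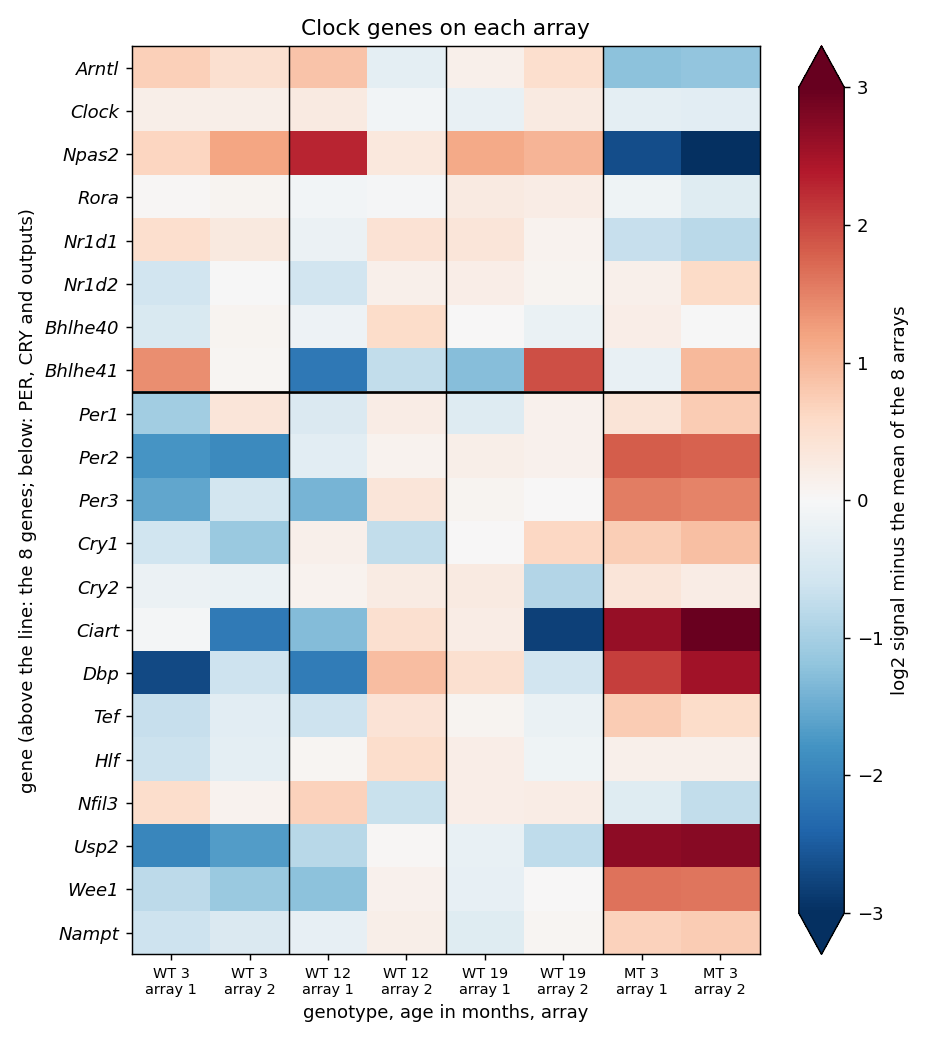
Log2 signal minus the gene's mean over the 8 arrays (colour, clipped at 3 either way) for the 8 genes above the line and for PER, CRY and output genes below it. The MT columns are blue for Arntl, Npas2 and Nr1d1 and red for Per2, Per3, Dbp, Usp2 and Wee1. The 2 WT 12-month columns differ in sign for every gene shown except Npas2, Rora, Bhlhe41, Cry2 and Hlf.

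Per2, Usp2, Wee1 and Nampt, genes on which the activator pair acts, were called higher in MT liver at 3 months. Of the 5 tested PER and CRY genes, which encode the repressors of the activator pair, all had differences above 0, with a median of 1.67, and 1 was called, where 0.515% of all tested probe sets were. That was Per2, at 83.2 and 75.2 in WT and 1004 and 967 in MT (3.64 ± 0.21, limma adjusted p = 0.000463). Ciart, a further repressor of the pair, was not tested and read 53.9 and 12.9 in WT and 346 and 438 in MT. Of 7 output genes, 3 were called higher, against the same background: Usp2 (4.53), a deubiquitinase with strongly rhythmic transcripts, Wee1 (2.57), a cell cycle kinase, and Nampt (1.25), the rate-limiting enzyme of NAD salvage. Dbp had 3.96 with an adjusted p of 0.0918, and Nfil3, a repressor at D-boxes, -0.86 with 0.351. At 19 months Per2 was called higher than at 3 months (1.99, adjusted p = 0.0296), with 0.0355% of all probe sets called, and no output gene was called.

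Among liver metabolism genes known as REV-ERB or ROR targets, Cyp7b1 was called lower in MT liver at 3 months. Of 8 tested, 5 had differences below 0 in MT at 3 months, with a median of -0.88. In WT at 19 against 3 months 7 of 8 were below 0, with a median of -1.03, and between MT and WT of 19 months the median was -0.03 with 4 below 0. Cyp7b1, an oxysterol hydroxylase, stood at 7842 and 6406 in WT and 1670.4 and 1620.2 in MT (-2.11 ± 0.15, limma adjusted p = 0.000748). Cyp7b1 was also lower at 19 months (-1.19, adjusted p = 0.0459). Insig2, which holds SREBP in the endoplasmic reticulum, had -1.26 in MT with an adjusted p of 0.0658, and Elovl3, a fatty acid elongase, -2.03 with 0.112. Cyp7a1 and Cyp8b1, enzymes of bile acid synthesis, differed widely between arrays of a group, Cyp7a1 reading 10786 and 658 at 12 months.

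Neither cofactors nor turnover enzymes of the clock proteins were called in MT at 3 months. Of the 5 tested coregulators (Hdac3, Ppargc1a, Ppargc1b, Nrip1 and Sirt1), 3 had differences above 0 and the median was 0.14. The 6 tested turnover genes (Csnk1d, Csnk1e, Fbxl21, Btrc, Fbxw11 and Gsk3b) encode kinases and ubiquitin ligase subunits that act on the stability of clock proteins. Of these, 4 were below 0 and the median was -0.10. Of the paralogs, Rorb was under the array median on all 8 arrays and Arntl2 on 6 of 8. Neither was tested.

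Likeness in pattern was measured as the root mean square difference between 2 genes' log2 signals over the 8 arrays, each centred on its mean, among 10975 tested genes (10976 for Npas2). It describes these arrays, and all genes share them. The gene most like Arntl was Ypel2 at 0.25, where the pattern of Arntl itself had a root mean square of 0.77, followed by Rnf125, Neb, Bmper and Ppard. Ypel2 read 1934 and 1929 in WT at 3 months and 629 and 555 in MT. The genes most like Arntl with the sign turned were Hspa1b, Tef, Coq10b, Tnfrsf9 and Alas1. For Npas2 the pattern, and so any likeness to it, is set mainly by the MT signals under the array median. By that measure the nearest were Dct, Serpina12, Abhd1, Eci3 and Mt2, and with the sign turned Usp2, A930033H14Rik, Wee1, Dbp and Per3.

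The nearest to Nr1d1 were Mdfic at 0.17, Tfpi2, Tgoln1, Nedd4l and Adck5, and with the sign turned Mettl1, Poc1a, Klf3, Mpo and Homer2. Nr1d2 had the closest neighbour of the 4 genes, Nhlrc2 at 0.08, and then Sertad1, Dnajc17, Actr5 and Clec2d. With the sign turned its nearest were Mtmr9, Hjv, Nudt13, Yif1b and Zfyve1. Between the genes themselves, Arntl was nearer to Nr1d1 at 0.53 and to Clock at 0.57 than to Rora at 0.67. Nr1d2 was nearer to Arntl with the sign turned, at 0.54, than as it stood, at 1.08. It was nearer still to Clock with the sign turned, at 0.25, and to Bhlhe40 as it stood, at 0.31. The pattern of Nr1d2 itself had a root mean square of 0.36, the distance at which an unchanging gene would lie. Nearness by this measure therefore also reflects how little a gene moves.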

How the data were processed

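Per the labels, total RNA of mouse liver was hybridised to 8 Affymetrix mouse genome arrays. The authors deposited MAS5 signal intensity values on a linear scale, scaled to about the same trimmed mean on every array. Array scanner output and detection calls were not used here. Of 45101 probe sets, 64 controls were left out. Of the rest, 34945 had 1 annotated symbol, 932 several and 9160 none. Signals were floored at 1 and taken to log2. The 50% of highest mean signal (22519) were fitted together with limma 3.58.1 in R 4.3.3 (lmFit, eBayes with a trend, all 4 groups, 4 residual and 5.37 prior degrees of freedom), and p-values were adjusted over all of them. The fit was tested on simulated data. The genotype, the ages and the replicate numbers came from the labels.

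The text names all probe sets of the 8 genes, each gene led by the probe set with the highest mean, the fixed lists of clock genes, and the 5 nearest genes each way in pattern for Arntl, Npas2, Nr1d1 and Nr1d2. The members and lists were chosen with earlier results of these data known. A group whose arrays both read under their median for a probe set was treated as low there, and a fold against it as a bound at that median. Promoters came from RefSeq (GRCm38.p6), and the table gave windows for 7 of the 8 genes. Alternatives were other scalings (quantile, median centring, an offset of 16), filters, variance settings, the methods' t-test, the replicate block and leaving out each array. The number of arrays limits the precision. Figures used matplotlib 3.10.9 in Python 3.11.15.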

Additional observations from a re-analysis of the deposited data

How the results depend on the processing

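No call of a member probe set was made in any of the 3 age comparisons under any alternative run. For MT against WT at 3 months the count of 0 became 1 (Arntl) with the upper 25% of signals, with only the groups compared, with a robust prior and without the 12-month group (an alternative chosen after seeing the data), 2 at an adjusted p under 0.1 (Arntl and Nr1d1) and 3 by the methods' t-test at fold 1.5 (Arntl, Clock and Nr1d1), which called 0 after Benjamini-Hochberg adjustment. Leaving out single arrays gave 0 to 1, the 1 without either 12-month array. For MT against 12 months it became 1 (Npas2) without the filter, and single arrays gave 0 to 1, the 1 being Arntl without the second 12-month array (adjusted p = 0.0233). For MT against 19 months it became 1 without the 12-month group and 2 by the methods' t-test, and single arrays gave 0 to 1, the 1 being Arntl without either 12-month array. Against the mean of WT groups the count of 1 became 2 without the filter (Arntl and Npas2) and at an adjusted p under 0.1, 0 without a variance trend and 0 with no filter and an offset of 16 (chosen after seeing the data), and single arrays gave 0 to 2, with 2 without the first 12-month array, where Nr1d1 had an adjusted p of 0.0410. The cause was not tested.

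The mean of all probe sets of a gene turned the sign of Rora (0.061) and Nr1d2 (-0.13) in MT against WT at 3 months, of Rora (0.13) and Nr1d2 (-1.39) at 12 months and of Nr1d2 (-0.22) at 19 months, since dim probe sets then count as much as bright ones. Leaving out single arrays moved the 12-month difference from -0.89 to 0.24 for Arntl, from -0.25 to 0.10 for Clock, from -0.56 to 0.029 for Nr1d1 and from -0.29 to 0.44 for Nr1d2, and the 19-month difference from -0.41 to 0.10 for Clock and from -0.17 to 0.37 for Bhlhe40.

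Replicate numbers are shared across groups. Over all tested probe sets, same-numbered arrays deviated together only weakly (r from -0.03 to 0.14), which cannot decide whether clock genes pair. Dbp, Per1, Per3, Tef, Hlf, Usp2, Nampt, Rora, Nr1d2 and Bhlhe40 were higher on the second array at both 3 and 12 months. Arntl, Nfil3 and Cry1 were lower there at both ages. Per2, Nr1d1, Wee1, Npas2, Clock, Cry2 and Bhlhe41 changed direction. At 19 months Dbp and Arntl turned (-1.07 and 0.36, second minus first array). A shared hour or batch was not tested. With the replicate block the count of member calls was 0 in every pairwise comparison and 1 against the mean of WT groups (Arntl, adjusted p = 0.0440), and all probe sets called at 19 against 3 months went from 8 to 25. Npas2 without the filter had an adjusted p of 0.0496 with the block. Over all probe sets, the 116 calls of MT against WT at 3 months were 9 without a variance trend, 233 with a robust prior, 177 in the upper 25%, 413 at an adjusted p under 0.1, 248 without the 12-month group and 13 to 255 without single arrays. Against 12 months the 103 were 1 to 226, against 19 months the 62 were 2 to 214 and against the mean of WT groups the 179 were 19 to 492, lowest without the trend and highest at an adjusted p under 0.1. At 12 against 3 months the 3 were 0 to 20, at 19 against 12 months the 0 were 0 to 11, and at 19 against 3 months the 8 were 135 with only the groups compared and 21 with arrays centred. The methods' t-test called 502 to 890 and, after adjustment, 0. Signals near the array median limit Npas2, Bhlhe41 and the dimmest Clock probe set.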
